A study of Mus musculus with 8 samples.

Results

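The genes described here encode the glutathione transferases (Gst and microsomal Mgst genes), the glutathione peroxidases (Gpx) and the flavin-containing monooxygenases (Fmo). They were chosen by symbol, which gave 39 of the 45583 genes in the deposited count table: 21 cytosolic, mitochondrial or peroxisomal Gst genes, 3 Mgst genes, 8 Gpx genes and 7 Fmo genes. RNA was sequenced from whole ovaries of 3-week-old C57/Bl6 mice, with 4 libraries labelled WT and 4 labelled GOAT KO. GOAT, ghrelin O-acyltransferase, attaches the acyl group to the hormone ghrelin and is encoded by Mboat4; the knockout of the study is global, in every tissue. The question was whether loss of the enzyme changed ovarian gene expression before puberty. Each library carries 1 animal number (1118, 1119, 1120 and 1121 for WT; for GOAT KO 1139, 1140, 1141 and 1146), and an ovary is a mixture of cell types, so that fewer cells of one type and less RNA per cell cannot be told apart.

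The targeted gene was at the limit of detection and did not follow the labels. Mboat4, on chromosome 8 at 34115030 to 34125182 (GRCm38), had 5, 7, 7 and 8 counts in the knockout libraries and 1, 1, 1 and 3 counts in the WT libraries. The higher counts were thus in the knockout libraries, without overlap, also as CPM, the counts per 1000000 counts of the library after TMM scaling (0.0840 ± 0.0531 against 0.388 ± 0.0736 CPM, SD, n = 4 each; two-sided exact permutation p = 0.0286, the smallest that 4 against 4 allows). Which exons the knockout allele removes is not given in the sources used here, so these few counts do not check the genotype; the study tested for the transcript by PCR, which is not analysed here, and every direction below is between libraries as they are labelled.

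Glutathione is the main small thiol of the cell. Glutathione transferases join it to reactive compounds, foreign or made by the cell, which makes them more soluble and easier to export. Glutathione peroxidases use it to reduce hydrogen peroxide and lipid peroxides, and flavin-containing monooxygenases add an oxygen atom to nitrogen or sulphur atoms of drugs and metabolites. In the ovary these enzymes are known from steroid-producing cells and from the response to toxic chemicals and oxidants.

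The glutathione peroxidases differ at the codon of the catalytic residue, which is selenocysteine, encoded by the stop codon TGA, in some members and cysteine (TGC or TGT) in others. The following stretches of reference coding sequence (GENCODE vM21, GRCm38) show this codon in capitals, and are given because Gpx3, called with all 8 libraries, belongs to the selenocysteine group.
Gpx1: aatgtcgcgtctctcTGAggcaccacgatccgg
Gpx2: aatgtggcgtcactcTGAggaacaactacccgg
Gpx3: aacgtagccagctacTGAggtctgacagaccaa
Gpx4: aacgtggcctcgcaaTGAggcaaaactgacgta
Gpx5: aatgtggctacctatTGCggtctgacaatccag
Gpx6: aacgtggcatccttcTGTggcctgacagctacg
Gpx7: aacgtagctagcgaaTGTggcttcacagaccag
Gpx8: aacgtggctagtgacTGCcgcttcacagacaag
In Gpx3 the codon lies on the plus strand of chromosome 11 at 54907256 to 54907258 and is codon 73 of the open reading frame, and in Gpx1 it is codon 47, on chromosome 9 at 108339451 to 108339453. Members of both kinds had ovarian reads: Gpx1, Gpx3 and Gpx4 with selenocysteine, and Gpx6, Gpx7 and Gpx8 with cysteine.

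Several transferases are close copies of each other, and the reads were only 50 bases long. The first 60 coding bases of the pairs with the most similar proteins are given in the same annotation, with the bases that differ within a pair in capitals.
Gsta1: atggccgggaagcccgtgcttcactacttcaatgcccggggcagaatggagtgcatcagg
Gsta2: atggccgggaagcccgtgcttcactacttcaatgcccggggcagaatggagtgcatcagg
Gstp1: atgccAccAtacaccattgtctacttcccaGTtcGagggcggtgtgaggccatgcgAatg
Gstp2: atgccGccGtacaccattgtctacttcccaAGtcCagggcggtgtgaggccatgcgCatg
Gsta1 (plus strand of chromosome 9, 78230656 to 78242684) and Gsta2 (minus strand, 78331018 to 78355788) had no difference in this window and 14 over 669 compared coding bases, and their proteins were 95.1% identical. Gstp1 and Gstp2, neighbours on the minus strand of chromosome 19, differed at 6 of these 60 bases and at 12 of 633 in all, with 97.1% protein identity. Of all stretches of 50 bases in the transcripts of Gsta1, 90.5% also occurred in transcripts of another gene, against 49.8% for Gsta2, 54.3% for Gstp2, 33.7% for Gstp1, 34.7% for Gpx4 and 28.8% for Gstm3. For 31 of the 39 genes the share was under 10%, and 18 genes, Gpx3 and Gsta4 among them, shared no such stretch. How reads that fit several genes were counted is not given in the sources used here, so values of Gsta2, Gpx4 and the Gstp pair are uncertain for this reason.

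The libraries held 16147216 to 19481798 counts on genes. Markers of the oocyte, granulosa, theca, stroma and endothelium were detected in every library. With all 8 libraries, 9 of 11 marker lists had no gene past the call described below. Genes past it were 5 of 5 tested adipose markers, higher, and 1 of 3 tested striated muscle markers, lower. Summed striated muscle markers were at 8.12 to 20.9 CPM in libraries labelled WT and 4.61 to 6.80 in those labelled GOAT KO, without overlap. The part of these markers in the values below was not tested. A pair of libraries stood apart. GOAT KO 1139 had a summed level of adipose markers of 614 CPM, where the other 3 libraries labelled GOAT KO reached at most 36.3 and those labelled WT 15.1 to 31.8, and the adipocyte hormone gene Adipoq stood at 96.7 CPM there. It also had 234 CPM of Star, which brings cholesterol into mitochondria for steroid synthesis, against 8.14 to 31.9 in the other 7 libraries, and 601 CPM of the theca enzyme gene Cyp17a1. WT 1120 had 65.0 CPM of Cyp19a1, the aromatase of granulosa cells, against 5.06 to 9.70 in the other libraries labelled WT, and 355 CPM of Cyp17a1 against 50.2 to 58.7. The libraries labelled GOAT KO had 45.2, 6.84, 17.7 and 31.6 CPM of Cyp19a1, and 601, 52.7, 42.4 and 138 of Cyp17a1. In both genes some GOAT KO libraries thus also lay above the other WT libraries. The study treated 1 library of each group as an outlier, without saying which. Results were therefore computed with all 8 libraries and again with 6, without these 2. These 2 were chosen because they stood apart in an earlier scaling of these libraries. On the second axis of a multidimensional scaling on 500 genes WT 1118 lay farthest out, at 0.76 where the next highest library was at 0.32.

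Expression of the detoxification genes was largely alike in the labelled groups (plot of log2 fold changes). Of the 39 genes, 27 passed the filter on low counts. With all 8 libraries the edgeR fit called Gpx3 and Gsta2 lower under the GOAT KO label and no gene higher (DESeq2 also called Fmo2 higher), where a call needs an unadjusted p under 0.05 and a log2 fold change beyond 0.5 in either direction, the thresholds of the study. These 2 of 27 genes (7.41%) stand beside 278 of all 16601 genes tested, 1.67%, and beside 0.717% that were called in the lower direction. The median log2 fold change of the 27 genes was 0.04, against -0.000349 over all genes tested; 17 values were above 0 and 10 below, and 22 lay within 0.25 of 0. No gene of the 27 had an adjusted p under 0.05 in the edgeR quasi-likelihood test, which 0.0241% of all genes tested had.

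**Figure D1:**
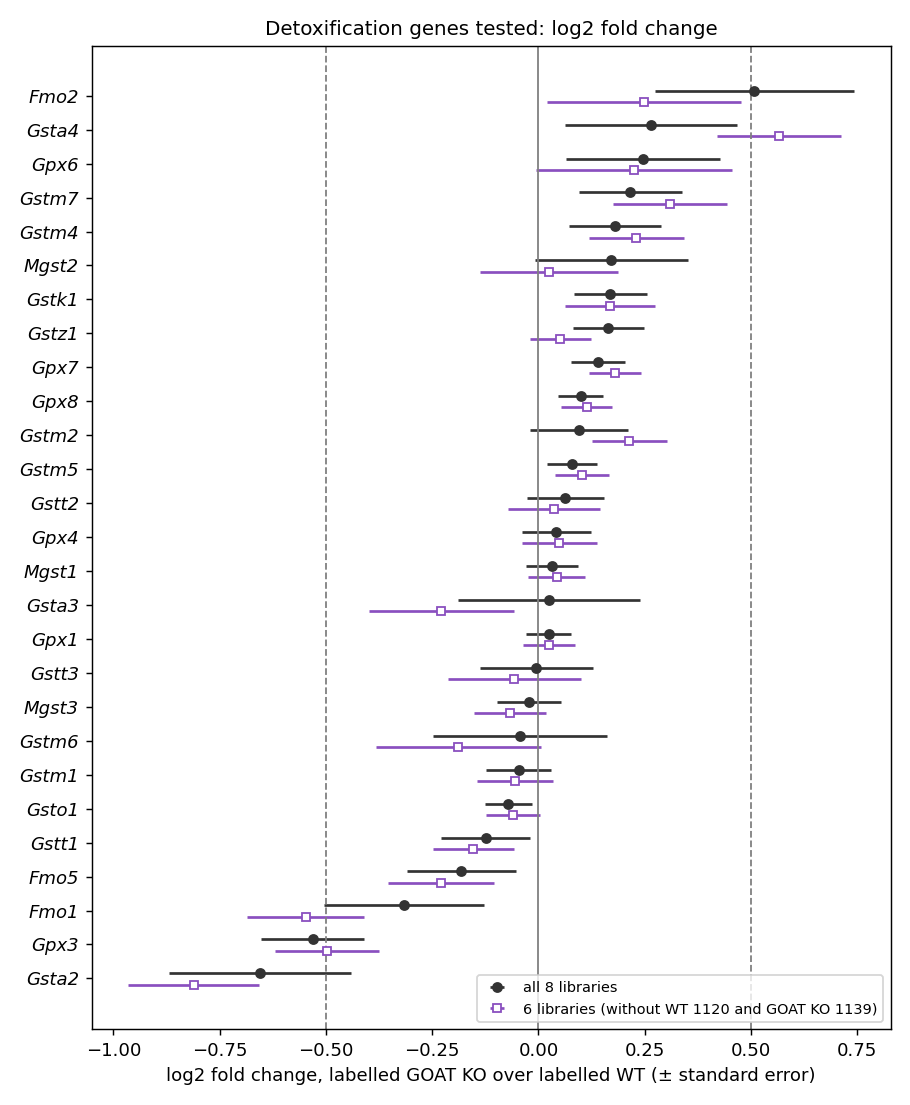
Log2 fold change, libraries labelled GOAT KO over those labelled WT, of the 27 detoxification genes that passed the filter (x axis; bars are 1 standard error), fitted with all 8 libraries (filled circles) and with 6 (open squares); dashed lines mark the limit of 0.5. Gsta2 and Gpx3 lie lowest with 8 libraries, at -0.66 and -0.53, and Gsta4 and Fmo1 pass the limit with 6 libraries only.

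With 6 libraries 3 of 27 genes were called: Gsta2 and Fmo1 lower, Gsta4 higher (11.1%, where 2.39% of 16641 genes tested were called). Gpx3 then had a log2 fold change of -0.50, just inside the limit of 0.5, with an unadjusted p under 0.05. Adjusted p under 0.05 was reached by 0.12% of all genes with 6 libraries and by none of these; the lowest, for Gsta2, was 0.148. In 3 genes (Gpx3, Gpx8 and Gstk1) the values of the labelled groups did not overlap with 8 libraries (11.1% of 27, against 2.92% of all genes tested).

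Gpx3 encodes the secreted glutathione peroxidase of extracellular fluid and plasma. It had 397, 317, 353 and 445 CPM in the libraries labelled WT, in order of animal number, and 225, 249, 317 and 256 in those labelled GOAT KO. The groups did not overlap, by a narrow margin: the lowest WT value was 317.05 and the highest GOAT KO value 316.66. The means were 378 ± 55.5 and 262 ± 39.1 (SD, n = 4 each), a ratio of 0.692, with a log2 fold change of -0.53 ± 0.12 (standard error) and an edgeR quasi-likelihood p of 0.00109 (adjusted p = 0.906; two-sided exact permutation p = 0.0286). The call rests on the fold limit: without WT 1121 the log2 fold change was -0.45 and without GOAT KO 1139 it was -0.47, both with an unadjusted p under 0.05.

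The other peroxidases moved little. Gpx1, the main cytosolic peroxidase, had 141, 132, 134 and 126 CPM in the libraries labelled WT and 136, 137, 137 and 132 in those labelled GOAT KO. The labelled groups overlapped throughout, with a log2 fold change of 0.02 ± 0.05. Gpx8, a peroxidase of the endoplasmic reticulum, had 76.6, 72.7, 76.4 and 77.2 in the WT libraries and 79.3, 81.5, 79.0 and 84.7 in the GOAT KO libraries. The values of Gpx8 separated, yet the log2 fold change was 0.10 ± 0.05, under the limit (edgeR adjusted p = 0.983). The remaining tested peroxidases (Gpx4, Gpx6 and Gpx7) had log2 fold changes of 0.04 to 0.25, and none was called. Gpx4, which reduces peroxides of membrane lipids, had only 309 to 383 counts per library and shares 34.7% of its 50-base stretches with other genes, chiefly the pseudogene Gpx4-ps2.

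**Figure D2:**
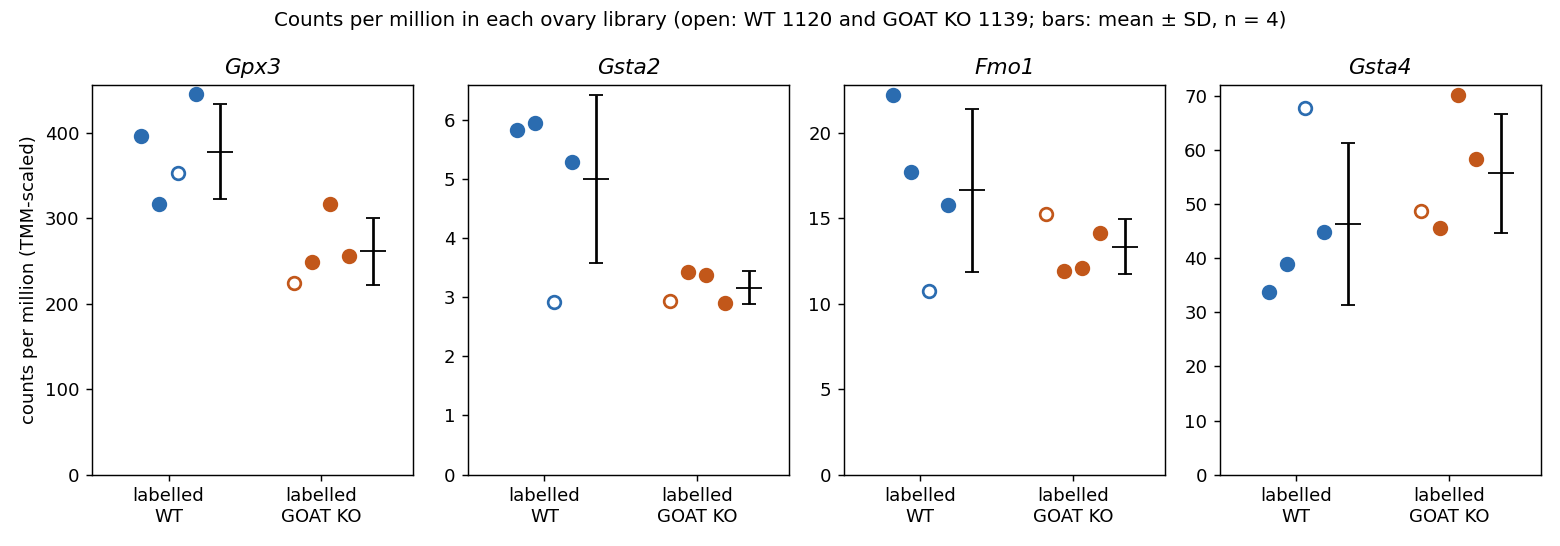
TMM-scaled CPM (y axis, from 0) of Gpx3, Gsta2, Fmo1 and Gsta4 in each library labelled WT (blue) or GOAT KO (orange), with the mean and SD of 4 libraries beside the points and the 2 libraries that stood apart drawn open. Gpx3 separates the labelled groups at about 317, while in the other 3 genes WT 1120 lies on the side of the GOAT KO libraries.

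Of the alpha class transferases, Gsta2 was called lower with either set of libraries, and Gsta4 was called higher with 6 libraries but not with 8. Gsta2 had 5.82, 5.95, 2.91 and 5.29 CPM in the libraries labelled WT and 2.93, 3.42, 3.38 and 2.91 in those labelled GOAT KO, from 49 to 107 counts. WT 1120 lay among the GOAT KO libraries, and the other 3 WT libraries lay above them all. The means were 4.99 ± 1.42 and 3.16 ± 0.279 (SD, n = 4 each), with a log2 fold change of -0.66 ± 0.21 (edgeR p = 0.0113, adjusted p = 0.983; exact permutation p over the same 8 values = 0.114). Without WT 1120 and GOAT KO 1139 the log2 fold change was -0.81 ± 0.15 (edgeR adjusted p = 0.148).

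Gsta4 encodes the enzyme that conjugates 4-hydroxynonenal, a product of lipid peroxidation. Its level was 33.8, 39.0, 67.8 and 44.8 CPM in the WT libraries and 48.8, 45.5, 70.1 and 58.4 in the GOAT KO libraries. The lowest GOAT KO value lay above all WT values except that of WT 1120, the second highest of all 8. With 8 libraries the log2 fold change was 0.27 ± 0.20 (edgeR p = 0.218, exact permutation p = 0.286) and did not pass the call. With 6 libraries it was 0.57 ± 0.15 (edgeR adjusted p = 0.339), and leaving out WT 1120 alone gave 0.50. It was 0.14 without WT 1118 and 0.13 without GOAT KO 1141. Beside it, 0 of 8 granulosa markers passed the call with 8 libraries, and with 6 libraries 3 were higher (Fshr, Inhbb and Cyp19a1) and 0 lower. Members of that list below 0 with 6 libraries were Amh and Foxl2, with log2 fold changes of -0.21 and -0.22. Summed theca and steroidogenic markers reached 3626 CPM in WT 1120 and 3791 in GOAT KO 1139, where the other 6 libraries had 2179 to 3139. The part of either list in the values of Gsta4 was not tested. Gsta3, the other alpha class member tested, had a log2 fold change of 0.02 with 8 libraries and -0.23 with 6.

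No mu class transferase passed the call. Gstm1, the transferase with the highest level per kilobase of exon, had 272, 207, 242 and 252 CPM in the WT libraries and 239, 228, 235 and 241 in the GOAT KO libraries. All 4 GOAT KO values lay within the range of the WT values, and the log2 fold change was -0.05 ± 0.08 (0.01 without WT 1118). Gstm2 had 108, 91.8, 137 and 99.1 in the WT libraries and 119, 104, 130 and 112 in the GOAT KO libraries, with WT 1120 the highest of all. Its log2 fold change was 0.10 ± 0.12 with 8 libraries and 0.21 ± 0.09 with 6, under the limit in both. Leaving out 1 library moved it between 0.02 (without WT 1119) and 0.22 (without WT 1120). Across the 6 tested mu class genes the log2 fold changes ran from -0.05 to 0.22. Gstm1 shares 18.9% of its 50-base stretches with other genes, the most with Gstm2-ps1, a row of the count table that itself held 818 to 1172 counts per library.

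Among the other soluble classes, Gstk1, a transferase of mitochondria and peroxisomes, was the one gene whose groups did not overlap. It had 11.2, 11.2, 11.5 and 10.3 CPM in the WT libraries and 12.9, 12.2, 12.7 and 11.8 in the GOAT KO libraries, with a log2 fold change of 0.17 ± 0.09 (edgeR adjusted p = 0.983). The difference was thus under the fold limit. Gsto1, an omega class enzyme with thiol transferase activity, had 61.5, 61.2, 63.2 and 58.8 in the WT libraries and 58.8, 60.8, 56.4 and 56.9 in the GOAT KO libraries. The groups overlapped at the edge and the log2 fold change was -0.07 ± 0.06. Gstt1, the theta class enzyme known for small halogenated compounds, had 38.3, 33.3, 28.7 and 35.9 in the WT libraries and 28.3, 34.2, 34.2 and 28.2 in the GOAT KO libraries, overlapping, with a log2 fold change of -0.12 ± 0.10 (-0.06 without WT 1118). The remaining genes of these classes that were tested (Gstt2, Gstt3 and Gstz1) lay between 0.00 and 0.17 in size.

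In gene counts the membrane-bound transferases did not differ beyond their spread. Mgst1 had 236, 246, 250 and 278 CPM in the WT libraries and 249, 266, 259 and 259 in the GOAT KO libraries. The GOAT KO values lay within the WT range, with a log2 fold change of 0.03 ± 0.06. Mgst3 had 39.0, 36.7, 36.2 and 36.2 in the WT libraries and 39.0, 39.2, 35.4 and 32.3 in the GOAT KO libraries, overlapping, with a log2 fold change of -0.02 ± 0.08. For Mgst2, known for making leukotriene C4, the log2 fold change was 0.17 ± 0.18. In reads across splice junctions, described below, the log2 ratios were 0.23 for Mgst1, 0.45 for Mgst2 and 0.01 for Mgst3, with overlapping groups.

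Flavin-containing monooxygenases were expressed at low levels. Fmo1 had 22.2, 17.7, 10.8 and 15.8 CPM in the WT libraries and 15.3, 11.9, 12.1 and 14.1 in the GOAT KO libraries. The 3 highest values were WT, and the lowest of all was WT 1120. With 8 libraries the log2 fold change was -0.32 ± 0.19 (edgeR p = 0.121, exact permutation p = 0.257), and with 6 it was -0.55 ± 0.14 (edgeR adjusted p = 0.324). Without WT 1118 it was -0.15. Fmo5 had 20.5, 15.4, 13.4 and 16.5 in the WT libraries and 13.3, 16.3, 14.5 and 13.9 in the GOAT KO libraries, overlapping, with a log2 fold change of -0.18 ± 0.13, which was -0.06 without WT 1118 and -0.27 without WT 1120. Fmo2, named after its values were seen, had the highest log2 fold change of the tested genes (0.51 ± 0.23, edgeR adjusted p = 0.983) from 40 to 92 counts per library, and 0.25 with 6 libraries. It was called higher without WT 1118 (0.67) and without GOAT KO 1146 (0.66). Fmo2 was highest in GOAT KO 1139, the library with the adipose markers, at 5.50 CPM, and the part of those or of the steroidogenic markers in its value was not tested.

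Levels of different genes were compared as CPM per kilobase of merged exons (plot of levels). Gpx3 stood highest, at 176 ± 42.2 (SD, n = 8), and its range overlapped that of Gstm1 at 163 ± 12.6. Mgst1 followed at 127 ± 6.48, with no overlap with Gstm1 above or with Gpx1 below at 93.3 ± 3.21. Gpx1, Gpx7 at 83.9 ± 6.26, Gpx8 at 74.8 ± 3.45 and Gstm2 at 67.1 ± 9.05 formed a run of neighbours with overlapping ranges. At the low end were Fmo5 at 2.73 ± 0.418, Fmo1 at 2.38 ± 0.592, Gsta3 at 1.59 ± 0.386, Gpx6 at 1.28 ± 0.196, Gstt3 at 1.26 ± 0.118 and Fmo2 at 0.666 ± 0.206. The most variable abundant genes were Gpx3, from 124 to 246, and Gsta4, from 26.7 to 55.4 over the 8 libraries.

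**Figure D3:**
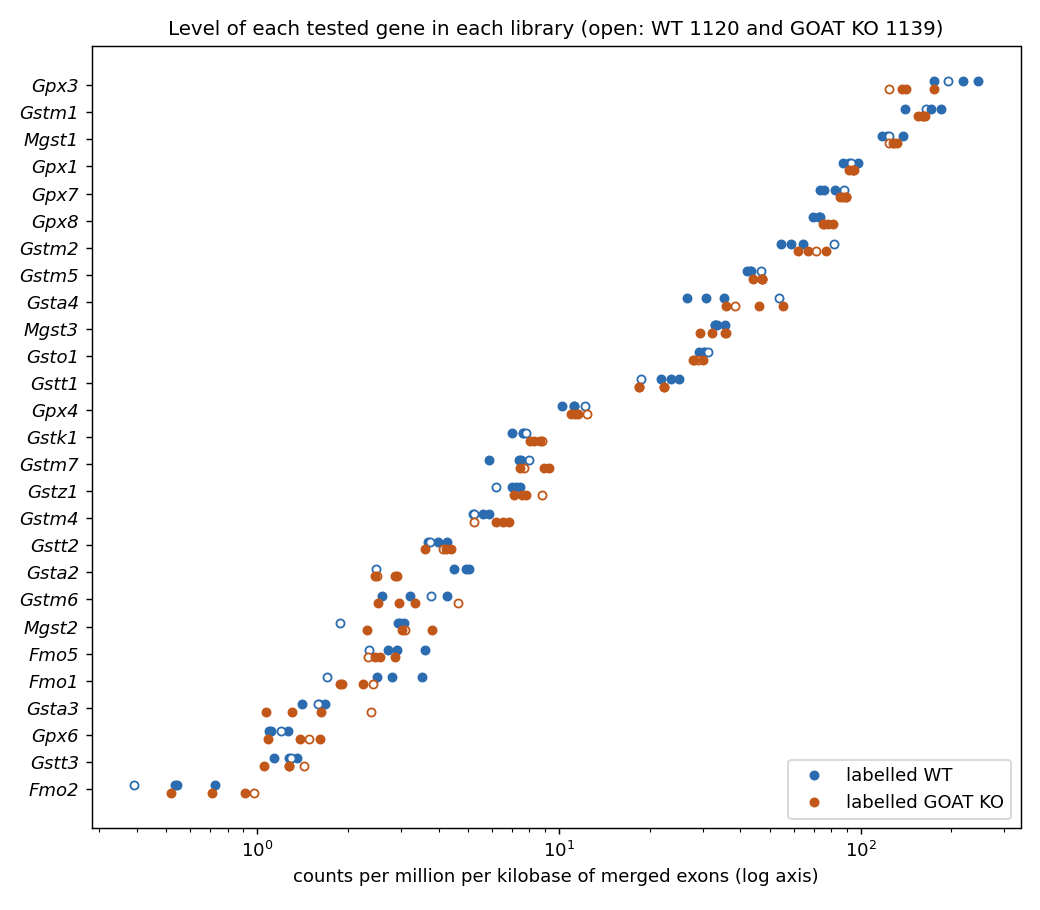
Level of each of the 27 tested genes in each library, as TMM-scaled CPM per kilobase of merged exons (logarithmic x axis), with libraries labelled WT in blue, those labelled GOAT KO in orange, and WT 1120 and GOAT KO 1139 open. Levels run from 0.391 for Fmo2 to 246 for Gpx3, and the spread between libraries is widest among abundant genes for Gpx3 and Gsta4.

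The other 12 genes did not pass the filter. Gsto2, Gstm3 and Gstt4, for example, had at most 10 counts in any library. Gstt4 had 0 counts in all 4 WT libraries and 1, 3, 1 and 4 in the GOAT KO libraries, too few for a fold. Fmo9, Gpx2 and Gpx5 were listed at 0 in every library and had no reads across a splice junction. Gsta1, Gstp1 and Gstp2 were listed at 0 as well, except for 1 count of Gstp1 in GOAT KO 1146, and yet had spliced reads.

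The deposited lists of splice junctions, with 2586686 to 3239382 spliced reads per library, gave a second readout from the same reads, here in reads per 1000000 junction reads and limited to junctions inside a gene on its strand. Gstp1, the pi class transferase, had 140, 112, 204 and 165 spliced reads in the WT libraries and 217, 112, 229 and 181 in the GOAT KO libraries. A zero in the count table therefore did not mean that no RNA of this gene was sequenced. On this scale the groups overlapped for Gstp1 (54.8 ± 14.3 against 64.3 ± 16.2, SD, n = 4; exact permutation p = 0.429). Of 11726 genes with at least 20 spliced reads, 149 (1.27%) were listed at 0 in every library.

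Gstp2, the near copy beside Gstp1, had spliced reads mostly under the WT label. It had 10, 11, 2 and 8 such reads among the WT libraries, the 2 in WT 1120, and 0, 0, 1 and 0 among the GOAT KO libraries. The WT libraries thus held 31 of its 32 reads. Among the 29 genes of this set with at least 20 spliced reads, Gstp2 and Gstz1 were those without overlap, where 3.01% of all such genes had none. Gstp2 reached 20 reads through the WT libraries alone, so its values are a description with no test. Gstp1 and Gstp2 together had 150, 123, 206 and 173 reads against 217, 112, 230 and 181, which overlapped (exact permutation p = 0.514). Gstz1, which acts in tyrosine breakdown, had 63.4 to 80.1 scaled reads in the WT libraries and 82.0 to 92.1 in the GOAT KO libraries; its gene counts overlapped.

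**Figure D4:**
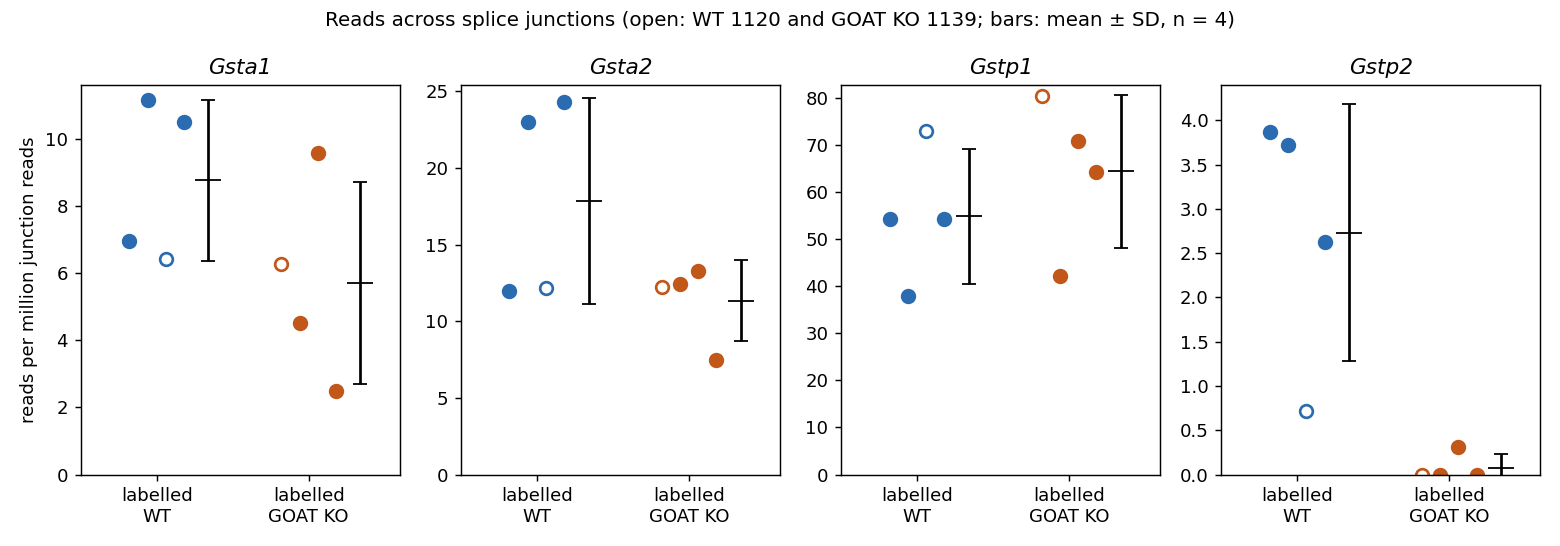
Reads across splice junctions per 1000000 junction reads (y axis, from 0) for Gsta1, Gsta2, Gstp1 and Gstp2 in each library, with the mean and SD of 4 libraries beside the points; blue is labelled WT, orange labelled GOAT KO, and WT 1120 and GOAT KO 1139 are open. Gstp2 has reads in all 4 WT libraries and in 1 GOAT KO library, while the groups overlap in the other 3 genes.

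For the genes called from counts, spliced reads gave the following. Gpx3 had 222, 265, 295 and 364 reads per 1000000 junction reads in the WT libraries and 189, 204, 260 and 221 in the GOAT KO libraries, which overlapped (log2 ratio of means -0.39, exact permutation p = 0.0571). Gsta2 had 31, 68, 34 and 74 spliced reads against 33, 33, 43 and 21 (log2 ratio of scaled reads -0.66, exact permutation p = 0.286), and Gsta1, which shares most of its sequence, had 18, 33, 18 and 32 against 17, 12, 31 and 7. Gsta4 had a log2 ratio of 0.34 with 8 libraries and 0.71 with 6. Fmo1 was the exception in direction: 26, 33, 20 and 29 spliced reads in the WT libraries against 43, 20, 21 and 38, a log2 ratio of 0.20 with 8 libraries and -0.16 with 6, where its counts gave -0.32 and -0.55.

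Around these enzymes, 105 genes of 5 lists (glutathione synthesis and recycling, thioredoxin and peroxiredoxin, the Nrf2 pathway, other drug metabolism and selenoprotein synthesis) were examined, and 96 were tested with 8 libraries. With 8 libraries 1 of 96 passed the call, higher (1.04%, against 1.67% of all genes tested), and 0 lower. With 6 libraries 3 of 95 were higher (3.16%, against 2.39%) and 0 lower, so that neither share lay far from that of all genes. The single gene with 8 libraries was Cyp2e1, a cytochrome P450, at 18.8 CPM in GOAT KO 1139 and at most 1.28 in any other library, with a log2 fold change of 3.36 (edgeR adjusted p = 0.983) and of -0.01 without the 2 libraries. It was thus high in the same library as the adipose markers, and their part in its value was not tested.

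In the list of 24 genes of glutathione synthesis and recycling, 0 were called with 8 libraries and 2 were higher with 6 (medians 0.05 and 0.08). Dpep1, a dipeptidase that splits the glutathione breakdown product cysteinylglycine, had 10.2, 8.78, 15.9 and 11.9 CPM against 13.2, 13.7, 19.9 and 18.6, with log2 fold changes of 0.48 with 8 libraries and 0.76 with 6 (edgeR adjusted p = 0.201). Abcc2, an exporter of glutathione conjugates, had a log2 fold change of 0.47 with 8 libraries and 0.55 with 6 (edgeR adjusted p = 0.510). Gclc, the catalytic subunit of the enzyme that starts glutathione synthesis, Gclm, its modifier subunit, and Gsr, glutathione reductase, had log2 fold changes of -0.19, 0.04 and -0.07. None of the 3 passed the call.

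The Nrf2 pathway, through which oxidants raise many of these genes, had 0 of 20 genes called with either set of libraries and a median log2 fold change of 0.02. Nfe2l2, which encodes the factor Nrf2, had a log2 fold change of -0.13 ± 0.08, Keap1, its inhibitor, 0.03 ± 0.08, and its target Nqo1 0.18 ± 0.16. Of 19 tested genes of the thioredoxin and peroxiredoxin list and 8 of the selenoprotein synthesis list, 0 were called with either set (medians 0.10 and 0.00 with 8 libraries). Of 33 tested genes of other drug metabolism, 1 was called with 8 libraries and 1 with 6. The latter was Adh1, an alcohol dehydrogenase that also oxidises retinol, at 11.96, 9.001, 25.2 and 14.8 CPM in the WT libraries and 25.6, 13.7, 19.9 and 19.7 in the GOAT KO libraries. Its log2 fold change was 0.37 with 8 libraries and 0.58 with 6 (edgeR adjusted p = 0.435), and its highest WT value, like that of Gsta4, was in WT 1120.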

How the data were processed

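Total RNA of 8 mouse ovaries was sequenced by the study as 50-base single reads on an Illumina HiSeq 2000. Per the labels, the authors mapped reads to mm10 with TopHat2 2.0.14, which also wrote the deposited splice junction lists, and assembled transcripts with StringTie 1.0.4 (not used here); the counting tool and its treatment of strand and of reads that fit several genes are not given in the sources used here. The deposited gene values are raw counts, whose totals equal the authors' number of reads on one feature in all 8 libraries; the authors' read summary gives 85.9 to 87.0 percent of reads mapped to the genome and 60.7 to 62.6 percent on one feature. Junction reads are counts per junction.

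Counts were fitted here with edgeR 4.0.16 (TMM, filterByExpr with a minimum count of 10, quasi-likelihood test of group, Benjamini-Hochberg adjustment over all genes tested), and checked on simulated counts. Alternatives were DESeq2 1.42.0, limma-voom 3.58.1, other scalings, no filter, other thresholds, 6 libraries, each library left out, and near-identical genes summed. Exact permutation tests were two-sided. They were run on CPM for Mboat4 and all 27 tested genes, and are printed for Mboat4, Gpx3, Gsta2, Gsta4 and Fmo1. Gpx8 and Gstk1, whose groups also did not overlap, had the same exact permutation p on CPM as Gpx3, 0.0286. On scaled junction reads they were run for 29 genes and for the Gsta and Gstp pairs. These are printed for Gstp1, the Gstp pair, Gpx3 and Gsta2. Positions, merged exons and stretches of 50 bases came from GENCODE vM21 (GRCm38), which may differ from the authors' annotation. Genes were named with values in every library if called, if groups did not overlap, if the study lists them under drug metabolism, or if among the 2 highest per family. The gene set, the pathway and marker lists and the 6-library choice were made with earlier results of these data known. Libraries carry separate animal numbers but no litter or batch, so p-values measure the spread between these animals only. Counts under about 100 in a library, as for Gsta2 and Fmo2, carry a counting error of 10 percent or more. The values of some genes are not reported here.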

Additional observations from a re-analysis of the deposited data

Results flagged for a closer look

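Among the 14 detoxification genes given in every library, 28 groups of 4 values were examined for a single value far from the others, and 1 was found: Mgst3 in WT 1118, at 39.0 CPM, where its gap to the nearest WT library was 0.83 of the whole range of the group, barely past the 95% critical value of Dixon's ratio for 4 values. Chance gives such a value in about 1 of 20 groups. The WT range of Mgst3 was 36.2 to 39.0, and the log2 fold change without WT 1118 was 0.0031.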

How the results depend on the processing

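No paired analysis was possible because the labelled groups share no animal number. Gpx3 and Gsta2, the 2 genes called lower, were also called under 3 other scalings, limma-voom, DESeq2 and no filter, all on the same counts. The TMM factors ran from 0.994 to 1.009, so another scaling could move the values little. A fold limit of 0.3 keeps every call made at 0.5, so it could not remove these 2. DESeq2 called 3 genes (210 of all 16601), adding Fmo2, and gave Gpx3 an adjusted p of 0.0409. Without a filter 4 were called (Fmo2 and Gstt4 added, both higher), and 691 of all 27459 genes tested (2.52%, against 1.67% with the filter). Gstt4 had 0 counts in every WT library and entered that fit only through the GOAT KO libraries. Its call is therefore a description with no test. With edgeR's adjusted p and no fold limit 0 detoxification genes, 4 of all genes and 0 pathway genes passed; at an unadjusted p under 0.05, 2 detoxification genes and 767 of all genes did. With a fold limit of 0.3, 473 of all genes and 2 pathway genes were called. Leaving out each library gave 1 to 3 detoxification genes, 231 to 437 of all genes (437 without WT 1120) and 0 to 3 pathway genes, and a Mboat4 difference of 0.278 to 0.333 CPM against 0.304; 1 detoxification gene remained, Gsta2, without WT 1121 or GOAT KO 1139, and 3 were called without WT 1118 or GOAT KO 1146 (Fmo2 added) and without WT 1120 (Gsta4 added). Cyp2e1 was not called by DESeq2 or limma-voom, which left 0 pathway genes; 3 were called with 6 libraries. Leaving out each library moved the log2 fold change of Gpx3 between -0.64 and -0.45, of Gsta2 between -0.85 and -0.56, of Gsta4 between 0.13 and 0.50 and of Fmo1 between -0.48 and -0.15. Values near 0 changed sign as single libraries were left out: Gpx1 ran from -0.0057 (without WT 1121) to 0.052, Gstm1 from -0.12 to 0.011 (without WT 1118) and Mgst3 from -0.058 to 0.032 (above 0 without WT 1118 or GOAT KO 1146). Spliced reads reversed Fmo1 (0.20), Gstm1 (0.16), Gsto1 (0.037) and Mgst3 (0.014). The cause of these changes was not tested. Summing near-identical genes changed nothing, as Gsta1 had no counts to add and the Gstp pair, with 1 count in all, stayed under the filter. Among the 14 genes given in every library, which do not include Fmo2, 209 of 225 values kept their direction and their call, which needs both thresholds. The 3 values that gained a call and the 5 that lost it were all of Gpx3, Gsta2, Gsta4 or Fmo1, and 8 values changed direction. The other genes were called under no setting and had no call to lose, so the 209 do not measure how stable the calls were.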
